A study of Saccharomyces cerevisiae with 20 samples.

Results

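The proteasome genes of budding yeast described here are 32 of the 6532 features in the deposited count table: 31 genes that code for structural subunits of the proteasome, and RPN4, which codes for the transcription factor that activates them. They were taken by gene symbol from a written list, and each was matched to its feature by systematic identifier. The subunits listed comprised 6 ATPases and 3 other subunits of the base, 8 subunits of the lid, 7 alpha subunits and 7 beta subunits of the core particle. SEM1 and RPN13 were not among them and were placed with the associated and assembly factors. RPT1 (YKL145W) shares its row with the dubious reading frame that overlaps it, so its values are uncertain, and the other 31 members had a row each. All 32 passed the filter on low counts, a mean of at least 10 reads over the libraries, and had between 71.5 reads (RPN4) and 1179 reads (RPN2) on average.

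The strains were W303a, a haploid laboratory strain of mating type a (WT), and delta_set1, which lacks SET1 (set1Δ), the gene for the enzyme of the COMPASS complex that puts methyl groups on histone H3 at lysine 4. Of the 10 libraries per strain, 1 came from cells growing asynchronously in rich medium at 30 °C and 9 from cells held in G1 with 5 µg/ml of the pheromone α-factor and sampled every 15 min from 0 to 120 min after its removal. The assay was PAT-seq, which sequences transcripts at their 3′ ends and gives for each gene a read count, a count of reads that run into a poly(A) tail and a mean tail length. The labels name no second culture, and there was 1 library per strain and time. A p-value for a strain difference sets it against its scatter across time points. For change over time and for differences of time course, it uses the scatter around a fitted curve or line, pooled over both strains. Successive libraries are treated there as independent. The scatter across cultures is unknown. In these bulk samples, fewer cells in a given phase and less RNA per cell cannot be told apart.

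The proteasome degrades proteins that carry chains of ubiquitin. Its core particle is a barrel of alpha and beta rings, with the peptidase sites on 3 of the beta subunits, PRE3, PUP1 and PRE2. The regulatory particle caps the barrel: the ATPases of the base unfold the substrate and thread it into the core, RPN10 binds ubiquitin chains, and RPN11 in the lid cuts the chain off. Rpn4 is itself a short-lived substrate of the proteasome, which closes a feedback loop, and it binds the proteasome-associated control element (PACE) in the promoters of subunit genes. Cyclins and other regulators of the cell cycle are among the substrates of the proteasome.

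The PACE element GGTGGCAAA was searched on both strands from 250 bases before to 50 bases after the first base of each start codon, in the RefSeq annotation of assembly R64. It was found in 27 of 32 member promoters (84.4%) and in 72 of all 6020 promoters of the same length (1.2%), a count that includes the 27. The shorter core GTGGCAAA, which every PACE match contains, was found in 30 member promoters (93.8%) and in 144 of all promoters (2.39%). RPN8, PRE5 and PUP1 held the core alone, and RPN10 and RPN4 held neither. Of the 27 PACE sites, 19 lay on the strand of the gene and 8 on the other, and their first base lay 84 to 183 bases before the start codon with a median of 120. The sites of the members that differed between the strains are shown first, in the orientation of the element and with the match in capitals, since these 5 genes share the element but not the direction of their difference.
RPN5, chrIV:190776-190804, plus strand: ttgacttttcGGTGGCAAAatgcaaaggg
RPN2, chrIX:220801-220829, minus strand: atttattttcGGTGGCAAAactggataca
RPN9, chrIV:1322086-1322114, plus strand: gctttcatccGGTGGCAAAagtaagaaca
RPN11, chrVI:153259-153287, plus strand: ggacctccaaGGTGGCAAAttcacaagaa
PUP2, chrVII:999226-999254, minus strand: aaccaagaccGGTGGCAAAagagtaacct
The 3 members with the core alone are shown next, because they hold the core without the full element.
RPN8, chrXV:817085-817112, minus strand: ggatacctcaGTGGCAAAtcgttactca
PRE5, chrXIII:901553-901580, plus strand: ctattatagaGTGGCAAAattaaaaatt
PUP1, chrXV:631891-631918, minus strand: acccggccgaGTGGCAAAataccaaaaa
Among the other genes of the pathway lists, the element also lay before the ubiquitin gene UBI4, the ubiquitin-activating enzyme gene UBA1, CDC48, the ATPase that extracts ubiquitylated proteins, ECM29 and YAP1. The first 4 of these differed between the strains: UBI4 was lower in set1Δ, and UBA1, CDC48 and ECM29 were higher. YAP1 was not called (log2 difference 0.15, edgeR adjusted p = 0.473). Of all tested genes, 8.44% were called higher and 10.5% lower, and of the 27 members with the element, 5 were called. The members and lists were chosen with earlier results of these data known, and calls among genes with the element outside them were not counted. Whether the element bears on these differences was not tested. The sites of the 3 ubiquitin genes are shown.
UBI4, chrXII:65349-65377, plus strand: cgaattcaaaGGTGGCAAAacccggagcc
UBA1, chrXI:39024-39052, plus strand: aaaaggtgcgGGTGGCAAAtaaaggtaaa
CDC48, chrIV:238787-238815, minus strand: atgtgaattcGGTGGCAAAaaaggacata
A match describes these letters in this window and does not show that Rpn4 bound there.

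**Figure D1:**
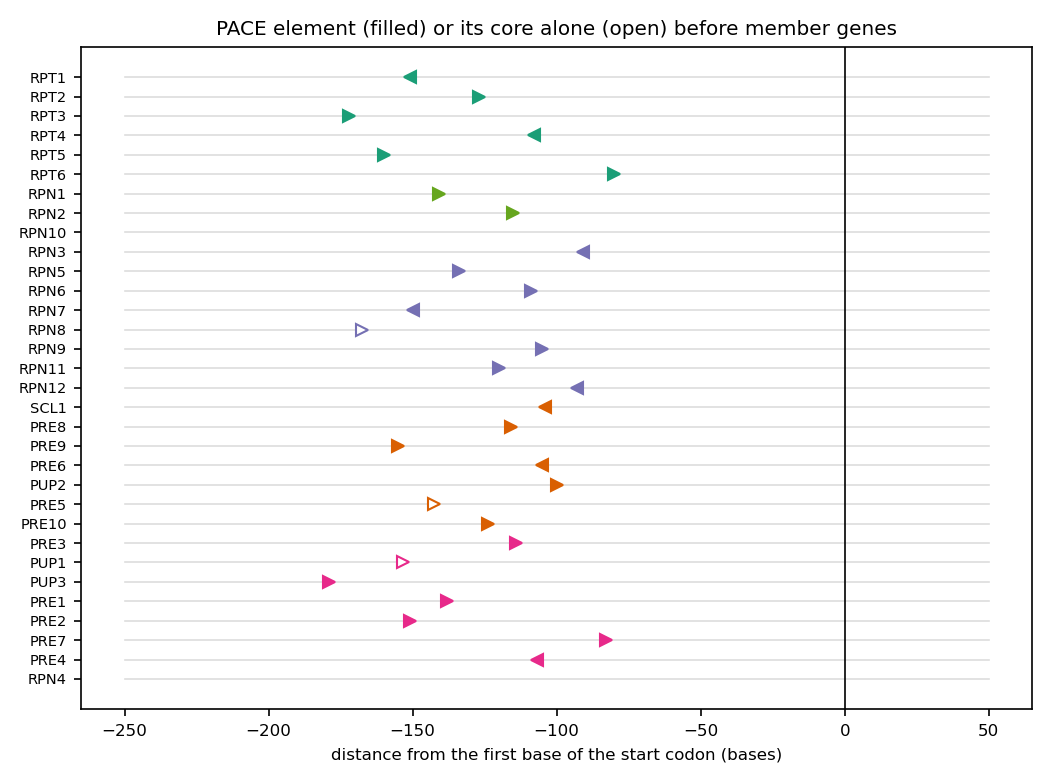
Position of the PACE element (filled triangles) or of its core alone (open triangles) in the promoter window of each of the 32 members, in bases from the first base of the start codon; a triangle pointing right lies on the strand of the gene, and colours mark the part of the proteasome. The sites cluster between 84 and 183 bases before the start codon, and RPN10 and RPN4 have none.

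Library depth lay between 476565 reads, in set1Δ at 30 min, and 2413354 reads, in WT at 75 min. The WT library of 120 min stood apart by its share of reads with a tail, 32.2% (95% Wilson interval 32.2 to 32.3, counting error only), against 52.4% to 76.3% in set1Δ. That of 105 min, at 51.3% (51.2 to 51.4), was close to set1Δ at 105 min by this share. Both late WT libraries had low TMM scaling factors, 0.817 and 0.621 against 0.945 to 1.13 in set1Δ, and their 10 most abundant features took 16.5% and 21.6% of reads, against at most 13.4% in set1Δ. The tests of the members were therefore also run without 105 and 120 min in both strains. Levels are given as CPM, read counts scaled to the TMM-adjusted size of each library. The mean level of SET1 over 10 libraries was 44.3 ± 14.7 (SD) in WT and 9.78 ± 2.82 in the deletion strain (log2 difference -2.16). The genes for the α-factor receptor and for a-factor, STE2, MFA1 and MFA2, were read in both strains, and the α-specific STE3 was near 0 in both, at 0.711 ± 0.855 CPM in WT libraries and 1.82 ± 1.41 CPM in those of set1Δ. Of the 3 α-specific genes listed, only SAG1 passed the count filter, and its log2 difference of 0.45 was not called. At 0 min SAG1 stood above the asynchronous culture by 0.86 on the log2 scale in WT and by 0.08 in set1Δ, with 1 library each. All 3 a-specific genes were lower in set1Δ, with log2 differences from -2.01 to -1.31, although MFA1 was not called without 105 and 120 min (edgeR adjusted p = 0.0537). The summed level of 12 heat shock and stress genes ran from 2253 to 6268 CPM in WT and from 2477 to 5180 CPM in set1Δ. After release in WT, YDJ1, HSP82 and SSA3 were highest at 120 min, at 3168, 1461 and 768 CPM, and the others at 15 min. HSP12, HSP42 and SIS1 were lowest at 120 min. The lowest share of tailed reads in WT was 3.96% for YDJ1, 15.7% for HSP82 and 5.88% for SSA3. The sum is thus not a plain sign of the state of a culture, and its part in the results below was not tested.

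Loss of SET1 left most proteasome transcripts near their WT level. Across 10 time points, 3 of the 32 members were higher in set1Δ and 2 were lower, and all 5 differences were smaller than 1.5-fold. Those higher were the lid subunits RPN5 and RPN9 and the base scaffold RPN2, and those lower were the deubiquitylase RPN11 of the lid and the core alpha subunit PUP2. The edgeR quasi-likelihood test called 8.44% of the 5060 tested genes higher and 10.5% lower at a Benjamini-Hochberg adjusted p below 0.05, so the members' shares were close to those of all genes. The log2 difference, set1Δ minus WT, was above 0 in 22 members and below 0 in 10, with a median of 0.10 against -0.01 over all tested genes. Without 105 and 120 min, 4 members were called higher and 3 lower, beside 13% and 13.9% of all genes: RPN10 joined the first group and the alpha subunit PRE8 the second.

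**Figure D2:**
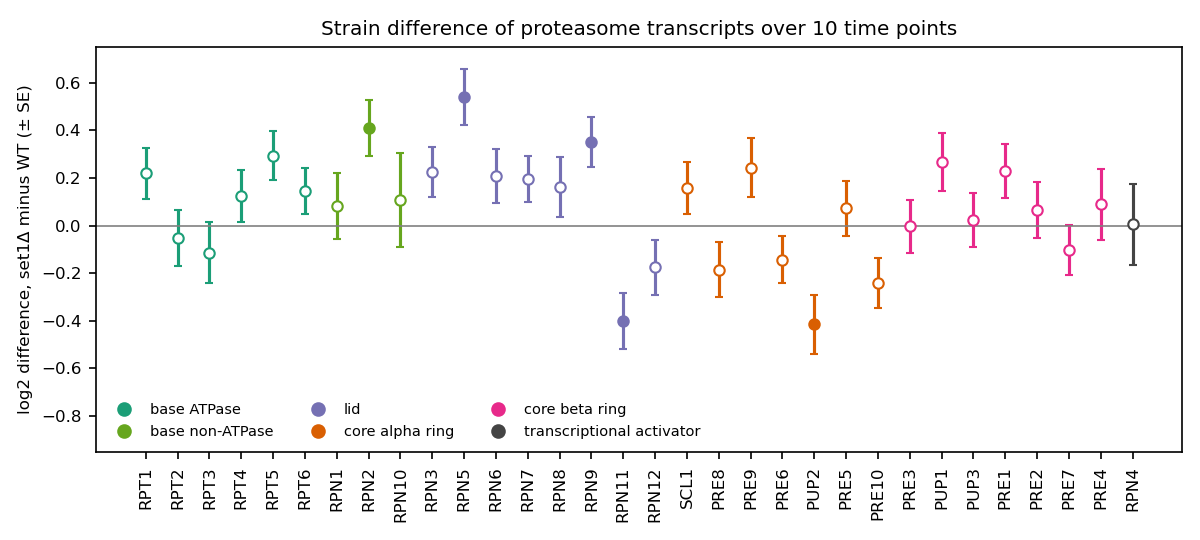
Log2 difference in read count, set1Δ minus WT, over 10 time points for each of the 32 members; points are the fitted difference, bars ± 1 SE, colours the part of the proteasome, and filled points the members with an adjusted p below 0.05. The values run from -0.42 (PUP2) to 0.54 (RPN5).

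RPN5 (YDL147W, chrIV:190924-192261, plus strand), a scaffold subunit of the lid, differed most. Its level in WT was lowest at 33.3 CPM, had a median of 78.6 CPM and was highest at 96.5 CPM, and in set1Δ it was lowest at 84.0, had a median of 109 and was highest at 135 CPM. The set1Δ library was above the WT library at all 10 time points, although the ranges of the strains overlapped. It was higher by 0.54 ± 0.12 (SE) on the log2 scale (edgeR adjusted p = 0.00439), and by 0.41 (adjusted p = 0.00437) without the late libraries. RPN2 (YIL075C, chrIX:217863-220700, minus strand), the large scaffold of the base, was at 507 to 992 CPM in WT with a median of 621, and at 750 to 1038 CPM in set1Δ with a median of 895. It was higher in set1Δ at 8 of 10 time points, the exceptions being 0 and 120 min, and its log2 difference was 0.41 ± 0.12 (edgeR adjusted p = 0.0233). RPN9 (YDR427W, chrIV:1322205-1323386, plus strand), another lid subunit, was at 142 to 249 CPM in WT with a median of 174, and at 189 to 294 CPM in set1Δ with a median of 226. It was higher at 9 of 10 time points, with a log2 difference of 0.35 ± 0.11 (edgeR adjusted p = 0.0263).

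RPN11 (YFR004W, chrVI:153393-154313, plus strand) moved the other way. Its level was 58.8 to 123 CPM in WT with a median of 84.0, and 49.3 to 81.3 CPM in set1Δ with a median of 62.2. It was lower in set1Δ at 9 of 10 time points, and its log2 difference was -0.40 ± 0.12 (edgeR adjusted p = 0.0228). PUP2 (YGR253C, chrVII:998358-999140, minus strand) was at 77.7 to 260 CPM in WT with a median of 179, and at 94.2 to 195 CPM in set1Δ with a median of 121. It too was lower at 9 of 10 time points, with a log2 difference of -0.42 ± 0.13 (edgeR adjusted p = 0.0284). The plot of these genes by time shows that the strains were farthest apart for PUP2 at 15 min, with WT at 260 CPM and set1Δ at 123 CPM, and had met by 105 min, with 104 and 96.3 CPM. Of the 5, RPN5 alone was called in every fit that left out 1 time point, although the sizes of the other differences moved little. Over those fits the log2 difference ran from 0.37 to 0.48 for RPN2, 0.32 to 0.41 for RPN9, -0.44 to -0.34 for RPN11 and -0.49 to -0.34 for PUP2. Leaving out 45, 75 or 90 min ended the calls of RPN2, RPN9, RPN11 and PUP2, with adjusted p from 0.0507 to 0.0712, leaving out 30 min ended both lower calls, leaving out 15 min those of RPN9 and PUP2, and leaving out 60 min those of RPN2 and PUP2.

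**Figure D3:**
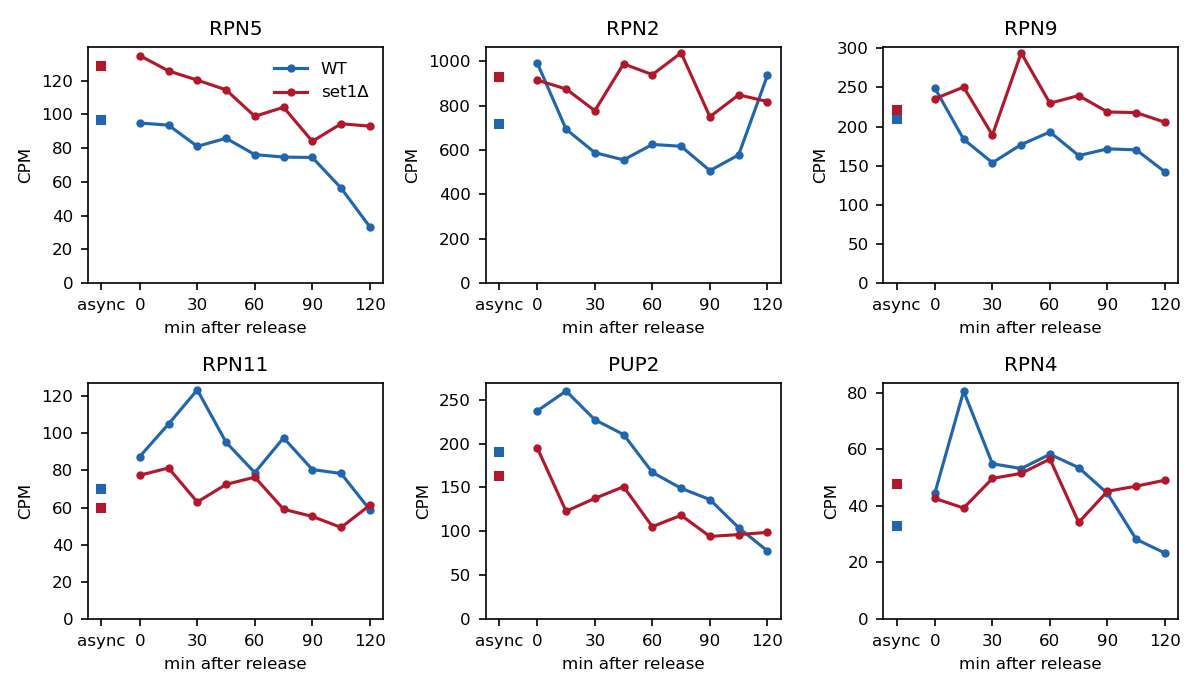
Read counts (CPM) of the 5 members that differed between the strains and of RPN4, against minutes after release; squares mark the asynchronous culture (async), circles the 9 libraries after release, blue WT and red set1Δ, with 1 library per point. RPN5 in set1Δ lies above WT at each time, PUP2 in WT falls from 260 CPM at 15 min to 77.7 CPM at 120 min, and RPN4 in WT has its highest point, 80.5 CPM, at 15 min.

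Within the parts of the proteasome, differences of both signs stood side by side. The lid held 2 higher and 1 lower call among 8 subunits, with a median log2 difference of 0.20, while the core alpha ring held 1 lower call among 7 subunits and a median of -0.14. The 7 beta subunits gave no call, with values from -0.10 (PRE7) to 0.27 (PUP1), and neither did the 6 base ATPases, from -0.11 (RPT3) to 0.29 (RPT5). The other ATPases lay at 0.22 (RPT1), 0.14 (RPT6), 0.12 (RPT4) and -0.05 (RPT2), and the base scaffold RPN1 at 0.08. The lid subunits without a call lay at 0.23 (RPN3, higher in set1Δ at 10 of 10 time points), 0.21 (RPN6), 0.20 (RPN7), 0.16 (RPN8) and -0.18 (RPN12). Of the alpha ring beside PUP2, PRE10 lay at -0.24, PRE8 at -0.19, PRE6 at -0.14, PRE5 at 0.07, SCL1 at 0.16 and PRE9 at 0.24. The structural beta subunits PRE1, PRE4 and PUP3 lay at 0.23, 0.09 and 0.02. RPT5 lay just outside the threshold, with an adjusted p of 0.0518 in edgeR and a 95% interval of 0.06 to 0.52, and DESeq2 gave it 0.31 with an adjusted p of 0.0107. Among the peptidase subunits the log2 difference was -0.00 for PRE3 (95% interval -0.25 to 0.25), 0.27 for PUP1 (-0.01 to 0.54) and 0.07 for PRE2 (-0.20 to 0.33). All 95% intervals of log2 differences given here use 9 degrees of freedom, fewer than the edgeR test. They are wider than that test implies, and the unadjusted edgeR p of PUP1 was 0.0417. Counting only reads with a tail, 6 members were higher, RPT1, RPT5, RPN2, RPN5, RPN9 and PRE9, and RPN11 and PUP2 were lower, beside 11.6% and 13% of all genes.

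RPN4 (YDL020C, chrIV:415113-416708, minus strand) did not differ between the strains by the test over all times. Its log2 difference was 0.01 ± 0.17 (edgeR adjusted p = 0.984), with a 95% interval from -0.38 to 0.39. In WT it stood at 32.9 CPM in the asynchronous culture and, from 0 to 120 min, at 44.5, 80.5, 54.8, 53.2, 58.2, 53.5, 44.4, 28.2 and 23.3 CPM. In set1Δ it stood at 47.6 CPM in the asynchronous culture and then at 42.6, 39.2, 49.7, 51.4, 56.5, 34.1, 45.1, 46.9 and 49.0 CPM. The WT library was thus well above that of set1Δ at 15 min and below it at 105 and 120 min. The change over time in WT passed the test (edgeR adjusted p = 0.0154) but not without 105 and 120 min (0.291), and the difference of the time courses gave an adjusted p of 0.0857. The WT value at 15 min came from 92 reads and the set1Δ value from 67.

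After release, more members changed in WT than in set1Δ, as did more of all genes tested, and most of the members' WT calls were lost without the late libraries. Over the 18 libraries after release, fitted with a spline of time in each strain, 14 members changed in WT beside 39.3% of all 5038 genes tested, and 2 changed in set1Δ beside 15.8%. The time courses of 2 members, RPN10 and PRE4, differed between the strains, beside 12.5%. The summed level of the 31 subunits was highest at 0 min in WT, 7144 CPM, and lowest at 90 min, 5234 CPM. Summed over tailed reads alone, it was lowest in WT at 120 min, 6222 CPM of tailed reads, after 6437 at 90 min and 8881 at 0 min. At 120 min RPN10 and RPN2 made up 840 and 937 of the 5804 CPM over all reads. In set1Δ the sum over all reads ran from 6808 CPM at 45 min to 5454 CPM at 105 min. In WT, 10 of the 31 subunits were highest at 0 min and 8 at 15 min, while 13 were lowest at 120 min and 8 at 105 min. In set1Δ, 9 were highest at 0 min and 12 were lowest at 105 min. Such counts were not made over all genes, and the WT libraries of 105 and 120 min are those with low scaling factors. The median subunit ranged over 0.97 on the log2 scale in WT and 0.63 in set1Δ, less than the medians of 1.31 and 0.89 over the 2414 genes with mean read counts within those of the members. Up to 90 min these medians were 0.64 and 0.56 for the subunits and 0.89 and 0.82 for the genes of like count, with a smaller gap between the strains.

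**Figure D4:**
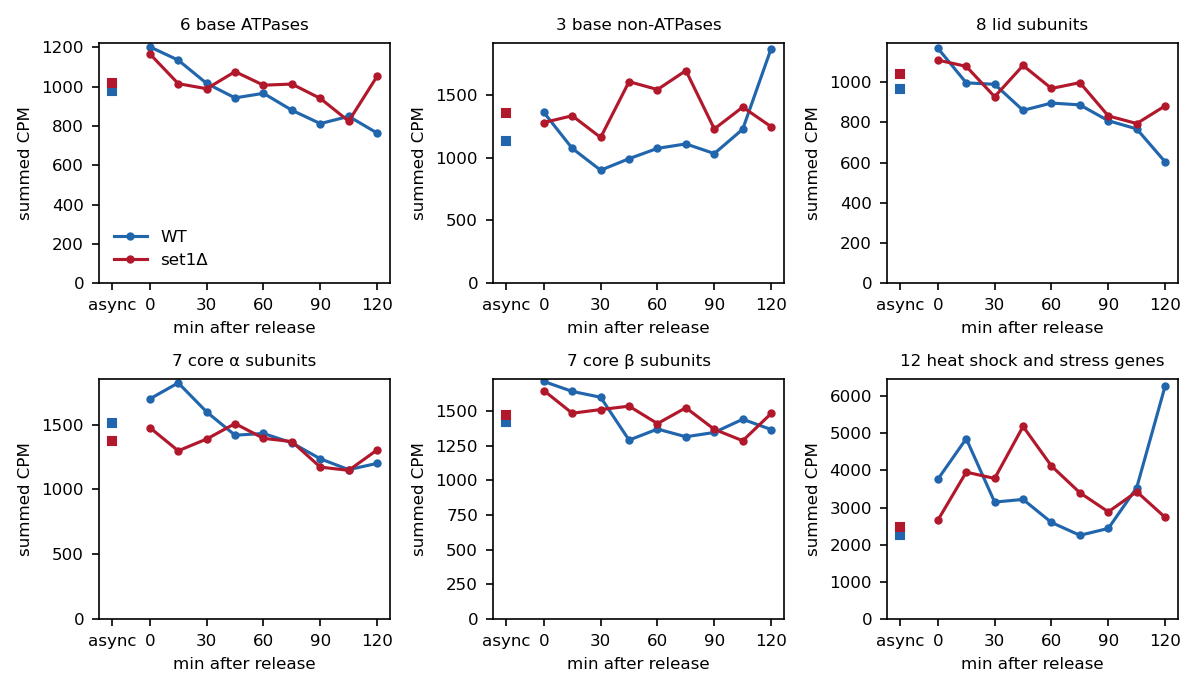
Summed CPM of the base ATPases, the other base subunits, the lid, the core α and β subunits and, for comparison, 12 heat shock and stress genes, against minutes after release; squares mark the asynchronous culture (async), blue WT and red set1Δ, with 1 library per point. In WT the lid sum is 1170 CPM at 0 min and 604 CPM at 120 min, where the sum of the 3 non-ATPase base subunits is 1870 CPM. The sum of the stress genes there is 6268 CPM, of which YDJ1 alone gives 3168 CPM.

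Without the late libraries, 5 members still changed over time in WT (RPT6, RPN2, RPN12, PUP2 and PRE7, beside 23.7% of all genes) and 2 in set1Δ (RPN10 and PRE7, beside 19.4%). No member then differed in time course, beside 2.65% of all genes. This refit kept a spline of 5 degrees of freedom per strain on fewer libraries, which leaves less information on the scatter. Whether calls were lost for that reason was not tested. The beta subunit PRE7 (YBL041W, chrII:141247-141972, plus strand) was called in both strains with and without the late libraries. It was highest at 30 min in both, with 413 CPM for WT and 393 CPM for set1Δ, and stood at 238 and 259 CPM in the asynchronous cultures. Its lowest values were 163 CPM at 120 min in WT and 170 CPM at 105 min in set1Δ (edgeR adjusted p = 0.00668 and 0.0152). RPN12 (YFR052W, chrVI:252505-253329, plus strand), a lid subunit, was highest at 0 min, where WT had 408 CPM and set1Δ 254 CPM. It was lowest at 112 CPM in WT at 120 min and 113 CPM in set1Δ at 105 min (edgeR adjusted p = 0.00118 and 0.0277). PRE4 (YFR050C, chrVI:249066-249866, minus strand), a beta subunit, differed in time course with an adjusted p of 0.0410. It lay between 96.8 and 158 CPM in 9 of 10 WT libraries and at 43.3 CPM in that of 120 min, against 103 to 146 CPM in set1Δ.

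RPN10 (YHR200W, chrVIII:499079-499885, plus strand), the ubiquitin receptor of the base, was counted mostly from reads without a tail, and its course over time differed between all reads and tailed reads. In WT its level from 0 to 120 min was 261, 212, 166, 287, 284, 332, 381, 576 and 840 CPM, and in set1Δ it was 213, 326, 288, 458, 436, 511, 367, 418 and 286 CPM. The WT level thus rose late, and the set1Δ level was highest at 75 min (edgeR adjusted p = 0.00337 for the difference of the time courses). The share of its reads that carried a tail was 87.8% (95% Wilson interval 83.4 to 91.1) in WT at 30 min, 14.9% (12.0 to 18.4) at 105 min and 4.36% (3.12 to 6.06) at 120 min, where only 33 of 757 reads had one. Counted among reads with a tail alone, the WT level ran from 75.2 CPM at 120 min to 191 CPM at 90 min. On that count the level at 120 min was the lowest of the course, where on all reads it was the highest.

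**Figure D5:**
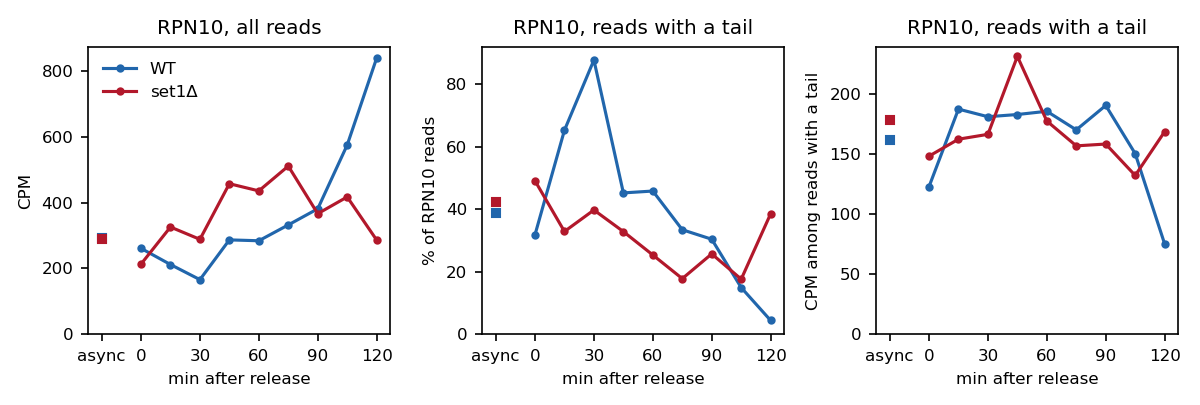
RPN10 against minutes after release: CPM over all reads (left), the percent of its reads that carry a poly(A) tail (middle) and CPM among reads with a tail (right); squares mark the asynchronous culture (async), blue WT and red set1Δ, with 1 library per point. In WT the level over all reads rises to 840 CPM at 120 min while the share with a tail falls from 87.8% at 30 min to 4.36%; the level among tailed reads is 75.2 CPM at 120 min.

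Over all libraries 32.1% of RPN10 reads carried a tail, the lowest share among the members, followed by PRE2 with 62.1% and PRE5 with 65.3%, while the median member had 84.7%. The strain difference of RPN10 moved with the same choice: it was 0.11 over all reads, 0.37 (edgeR adjusted p = 0.0345) without 105 and 120 min, and -0.01 without these times and on tailed reads alone. Other genes of the pathway that were read mostly without a tail also stood high in the late WT libraries. SEM1, a small lid protein outside the 32, reached 2719 CPM at 120 min with 4.20% of reads tailed, and the assembly chaperone NAS6 stood at 756 CPM at 105 min with 6.81% and at 718 CPM at 120 min with 4.95%. The coding region next to that of RPN10 at its 3′ end, YHR201C, lies 65 bases away on the opposite strand, and whether its reads reach the RPN10 feature was not tested.

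How far the subunits moved together was described by correlating each, on log2(CPM + 1), with the mean z-score of the other 30 over the 20 libraries, which share depth and scaling. The median pairwise Pearson r among the 31 subunits was 0.21, against -0.00 among all 3285 genes with a mean of at least 50 reads. Pearson r with the mean of the others ran from -0.59 (RPN10) to 0.92 (PRE9), with RPT1 at 0.88 and RPN6 at 0.86. Of the 50 genes most like the subunit mean, 3 were subunits, and of the 100 most like it, 5. The non-member genes most like it were CPR6 (Pearson r = 0.85), a cyclophilin that works with the chaperone Hsp90, NSG2 (0.83), YPR148C (0.83) and SEC17 (0.82), a protein of vesicle fusion, followed by RER2, RSA1, YPT52, KAP120, GPI10 and ERV29 with r from 0.77 to 0.80. RPN4 reached 0.49 over all libraries and 0.07 without 105 and 120 min. Within the 9 libraries after release of each strain, its r with the subunit mean was 0.79 in WT and -0.17 in set1Δ. With the subunit mean 15 min later, over 8 pairs per strain, r was 0.47 in WT and 0.73 in set1Δ, so the order of the strains was reversed. Neither difference was tested.

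Most members stood at 0 min within 1.5-fold of their asynchronous level. Between the asynchronous culture and 0 min, each with 1 library and no test, only RPN12 was at least 1.5-fold higher in WT, on the log2(CPM + 1) scale by 0.71, and none was 1.5-fold lower. In set1Δ only RPN8 was that much higher, by 0.70, and none lower. Of all tested genes, 20.3% were at least 1.5-fold higher and 21.5% lower in WT, and 7.89% higher and 10.8% lower in set1Δ. The median member was 0.18 above its asynchronous level in WT and 0.10 above it in set1Δ, against -0.03 and -0.01 over all tested genes. For RPN4 this difference was 0.42 in WT and -0.16 in set1Δ.

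Poly(A) tails of proteasome transcripts were of similar length in both strains. The mean tail over the 10 libraries ran in WT from 22.9 ± 1.87 nt (RPT4; SD, n = 10) to 38.8 ± 3.14 nt (PRE7), and in set1Δ from 22.8 ± 2.11 nt to 38.3 ± 2.29 nt for the same 2 genes. By limma, with adjustment over 4281 genes, no member had longer or shorter tails in set1Δ, beside 0% and 0.0934% of all genes. An unadjusted p below 0.05 was found in 3 of 32 members, beside 567 of the 4281 genes. The largest difference among the members was that of RPN1, the other large scaffold of the base. Its tails were 30.2 ± 2.29 nt in WT and 27.3 ± 2.66 nt in set1Δ, a difference of -2.89 ± 0.87 nt (SE, limma adjusted p = 0.195). The tail differences were below 0 in 24 of 32 members, with a median of -0.77 nt, beside -0.66 nt over all genes tested.

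Along the time course the tails of 7 members lengthened in WT: RPT6, RPN5, RPN11, PRE9, PUP2, PRE7 and RPN4, beside 9.36% of all genes. PRE9 tails rose from 23.3 nt at 0 min to 37.5 nt at 105 min and 33.1 nt at 120 min, a slope of 6.23 ± 1.26 nt per h (SE; limma adjusted p = 0.00825). RPN5 tails rose from 29.7 nt at 0 min to 39.6 nt at 105 min and 38.3 nt at 120 min, a slope of 5.70 ± 1.23 nt per h (limma adjusted p = 0.0107). In set1Δ no member passed, beside 0% of all genes. An unadjusted p below 0.05 was found there in 3 of 32 members, beside 394 of 4283 genes. The slope of RPN5 in set1Δ was 4.00 ± 1.23 nt per h. The 2 slopes differed for no member after adjustment, and PRE9 and PUP2 both had an adjusted p of 0.719 for that difference. Without 105 and 120 min, which also shortens the range of time fitted, none of the 7 calls in WT remained. The median tail over all genes tested was also longer in the WT library of 120 min, 32.1 nt, than in that of 0 min, 27.5 nt, and with that library median subtracted only PRE9 passed.

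Around the proteasome, the genes for assembly factors and for the ubiquitin system differed in both directions as well. For comparison, 8.44% of all tested genes were called higher in set1Δ and 10.5% lower. Of 17 associated and assembly factors, 2 were higher in set1Δ: SPG5, a regulator of the proteasome in resting cells, by 0.72 ± 0.17 on the log2 scale, and ECM29, which tethers the core to its cap, by 0.43 ± 0.12 (SE; edgeR adjusted p = 0.00765 and 0.0179). The 3 lower ones were chaperones that build the core, ADD66 at -0.48 ± 0.13, POC4 at -0.47 ± 0.14 and IRC25 at -0.42 ± 0.14 (edgeR adjusted p = 0.0185, 0.0211 and 0.0470). ADD66 was still called without 105 and 120 min, and POC4 and IRC25 were not. Of 4 genes for regulators of RPN4, only PDR3 was called, lower at -0.82 ± 0.22 (edgeR adjusted p = 0.0135), from 11.3 ± 3.68 CPM in WT to 6.35 ± 1.89 CPM in set1Δ. The palindrome TCCGCGGA, bound by Pdr1 and Pdr3, was found among the members in the window of RPN11 alone, where it lay inside the coding region, 42 bases past the first base of the start codon. It was in 13 of 6020 windows in all and not in that of RPN4. The Yap1 site TTAGTAA, found in 7.49% of all windows, was in those of RPN7, RPN8 and PRE5 and not in that of RPN4. The windows begin 250 bases before the start codon, and sites farther upstream, of RPN4 or of any gene, were not searched.

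Of 20 genes for ubiquitin and delivery factors, 4 were higher (20%) and 3 lower (15%) in set1Δ, beside 8.44% and 10.5% of all tested genes. UBI4, which codes for a chain of ubiquitin repeats and serves cells under stress, was lowest in WT at 41.5 CPM in the asynchronous culture and lay between 77.7 and 256 CPM after release, whereas in set1Δ it lay between 44.1 and 98.3 CPM in all 10 libraries. The cultures started alike, at 41.5 and 44.1 CPM, and at 0 min they stood at 205 and 56.2 CPM. Its log2 difference was -1.27 ± 0.20 (SE; edgeR adjusted p = 4.11e-04), larger than that of any member, and reads may be shared with other ubiquitin genes. CDC48 was higher by 0.53 ± 0.13, UBA1 by 0.43 ± 0.13, SHP1, a cofactor of Cdc48, by 0.35 ± 0.11, and DOA4, which recycles ubiquitin, by 0.58 ± 0.14 (edgeR adjusted p = 0.00773, 0.0295, 0.0353 and 0.00825). NPL4, another Cdc48 cofactor, was lower at -0.34 ± 0.12, and the deubiquitylase gene OTU1 was lower at -0.66 ± 0.21 (edgeR adjusted p = 0.0496 and 0.0380), with NPL4 at an adjusted p of 0.0507 without 105 and 120 min. Of the 12 heat shock and stress genes, HSP82 was higher at 0.56 ± 0.19, and HSP42 and HSP12 were lower at -0.90 ± 0.16 and -0.79 ± 0.25 (edgeR adjusted p = 0.0491, 8.07e-04 and 0.0351), with HSP12 at an adjusted p of 0.0583 without 105 and 120 min. Over time after release, 9 of the 17 associated factors, 9 of the 20 ubiquitin genes, 2 of the 4 regulators of RPN4 and 8 of the 12 stress genes changed in WT, beside 39.3% of all genes, and 3, 1, 0 and 5 of them in set1Δ, beside 15.8%. Without 105 and 120 min these counts were 3, 1, 1 and 10 in WT, beside 23.7%, and 3, 1, 0 and 9 in set1Δ, beside 19.4%.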

How the data were processed

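PAT-seq libraries of 20 samples were used. Per the labels, the reads were single reads from the 3′ ends of transcripts. The deposited files give whole-number counts of all reads for each feature, counts of the subset that runs into a poly(A) tail, and the mean tail length of that subset in nt, which is the authors' own estimate. Bowtie2 2.2.5, Bowtie and sacCer3 are listed in the submitters' processing notes, which do not say what each was used for. How reads were counted, and with which strand setting, is not given in the sources used here. Reads of overlapping genes may be mixed.

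Features with a mean of at least 10 reads entered the edgeR fits (version 4.0.16, R 4.3.3). The quasi-likelihood tests were robust and used TMM scaling. The strain difference used 20 libraries with strain and time as factors, and changes over time used 18 libraries with a spline of 5 degrees of freedom per strain. Tail lengths resting on at least 10 poly(A) reads were tested with limma 3.58.1. DESeq2 1.42.0, limma-voom, poly(A) reads alone and left-out libraries served as alternatives. The fit on poly(A) reads without 105 and 120 min together and the test of the difference between tail slopes were chosen after seeing the data. Adjusted p-values (Benjamini-Hochberg over all features) below 0.05 were called. The scripts were tested on simulated data. Promoters and coordinates came from RefSeq R64, taken as the same assembly as sacCer3. All members are named, with up to 4 called genes of each other list per comparison by smallest p and the 10 genes most like the subunit mean. The members and lists were chosen with earlier results of these data known.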

Additional observations from a re-analysis of the deposited data

Results flagged for a closer look

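Of 128 sets of 10 libraries, 1 strain and 1 member each for CPM or tail length, 6 held a library far from the others, and chance alone marks about 1 set in 20. The CPM of RPT2 was 309 in WT at 105 min, the nearest other WT library being at 231. The CPM of RPN8 was 114 in set1Δ at 0 min, the nearest other at 85.4. The mean tail of RPT2 was 24.0 nt in set1Δ at 90 min, the next lowest being 27.7 nt. In WT at 120 min the mean tail of RPN2 was 19.3 nt, below the next lowest at 23.2 nt, and that of RPN3 was 33.9 nt, above the next highest at 28.6 nt, in the library with the lowest share of tailed reads. The mean tail of RPN11 was 39.7 nt in set1Δ at 105 min, the next highest being 32.2 nt. The time courses of RPN10 and PRE4 differed between the strains by the edgeR test of the spline terms, with adjusted p of 0.00337 and 0.0410.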

How the results depend on the processing

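RPN5 was called higher in set1Δ under each of the 19 settings run. Members higher numbered 6 on poly(A) reads and 6 with the poly(A) share as a covariate, and members lower numbered 1 with no term for time and 3 with that covariate. With 1 time left out, 1 to 4 were higher and 0 to 3 lower; without 45, 75 or 90 min RPN5 alone was higher. Members changing over time in WT numbered 9 on poly(A) reads, 5 without 105 and 120 min and 5 with both changes (8 to 14 with 1 time left out). In set1Δ they numbered 1 on poly(A) reads and 1 with a spline of 4 degrees of freedom (0 to 5). Time courses differed for 0 members on poly(A) reads, without 105 and 120 min or with both, and for 1 with DESeq2 size factors (0 to 3, with 0 without 120 min). Tails lengthening in WT numbered 0 without 105 and 120 min and 1 after subtracting library medians (2 to 7).

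Log2 differences near 0 changed sign. PRE3 was 0.0084 with DESeq2 size factors, 0.0093 with DESeq2, 0.010 on poly(A) reads, 0.058 without 105 and 120 min and 0.14 with both. RPN4 was -0.0050 with limma-voom, -0.046 with no term for time, -0.066 on poly(A) reads, -0.18 without the late times and -0.18 with both. RPN10 was -0.012 with no term for time, -0.016 with the covariate and -0.0084 on poly(A) reads without the late times. RPN1 was -0.077 without the late times and -0.12 with both, PUP3 -0.028 and PRE4 -0.069 without the late times. With 1 time left out, RPT2 ran from -0.10 to 0.031, PRE3 from -0.043 to 0.060, PUP3 from -0.015 to 0.082, PRE4 from -0.047 to 0.16 and RPN4 from -0.093 to 0.13. The cause was not tested. The strain test pairs the libraries of both strains by time point, and with no term for time 3 members were higher and 1 lower.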
